A study of Mus musculus with 16 samples.

Results

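Transcripts of 10 genes used as markers of hair follicle stem cells (Cd34, Lgr5, Lgr6, Lrig1, Sox9, Lhx2, Nfatc1, Tcf7l1, Foxc1 and Tbx1) were followed in mouse skin with and without Gab1. The genes were chosen by name, and every array probe whose platform symbol is one of them was taken. That gave 15 probes for 9 genes, out of 25697 probes on the array; Tbx1 is not analysed here. Lgr6 and 2 of the 6 Nfatc1 probes were detected on no array, which left 12 tested probes for 8 genes, among 14504 tested probes for 10013 genes.

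The RNA came from dorsal skin, as the labels have it, and was read on 16 single-colour Illumina arrays, all from mice aged 15 days on a C57/BL6;129Ola mixed background. The mutant group has 7 arrays with the genotype K14-cre; Gab1fl, and the 9 remaining arrays have the genotype given as control, with no statement of which alleles or transgenes the controls carry. K14-cre places Cre recombinase under the promoter of keratin 14, a gene of basal keratinocytes and the outer root sheath, so deletion is aimed at the epithelium and not the dermis. Gab1 is a docking protein that passes signals from receptor tyrosine kinases to the ERK and other pathways. The comparison asked whether follicle stem cell transcripts differ when Gab1 is deleted in these epithelial cells.

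Hair follicle stem cells lie in the bulge, below the sebaceous gland, and in the hair germ beneath it, while separate progenitors occupy the isthmus and junctional zone above. Lgr5 and its relative Lgr6 are receptors for R-spondins, secreted amplifiers of Wnt signalling, and mark the lower bulge with the hair germ and the isthmus, respectively. Lrig1, a membrane protein that restrains ErbB receptors, marks the junctional zone, and Cd34 is a surface sialomucin of bulge cells that endothelial and other dermal cells also carry. The remaining members are transcription factors of the bulge: Sox9 and Lhx2 specify and maintain stem cells, Tcf7l1 is a mostly repressive Wnt effector, and Nfatc1, Foxc1 and Tbx1 are tied to stem cell quiescence or self-renewal.

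The 16 arrays were not treated as 16 independent samples. Within each labelled group, arrays fell into sets that correlated above 0.99 (0.994 to 0.996 over 18 pairs), whereas sets of a group correlated at 0.935 to 0.986. Each set, formed from array values and not from labels, was averaged and counted as 1 sample, called a source: 2 mutant sources of 3 and 4 arrays, and 3 control sources of 3 arrays each. Nothing in the labels says that sources are separate animals, so p-values measure the spread between these sources. The mutant sources were less alike (0.935 to 0.936) than mutant and control arrays typically were (median 0.956). The Y-linked Eif2s3y read 9.14 in mutant source 1, 4.78 in mutant source 2 and 10.41 to 10.74 in the control sources. Both mutant sources thus lay below every control source, and the transcript was detected on 3 of the 7 mutant arrays and all 9 control arrays. The part of sex in the member differences was not tested. With Y-linked signal lower in both mutant sources, sex and genotype cannot be told apart here. The single Gab1 probe, whose place relative to the deleted part is not known, read 12.69 ± 0.0057 (SD, n = 3 sources) in the control and 11.65 ± 0.44 (SD, n = 2) in the mutant, 48.9% of control (limma adjusted p = 0.239). Between 52.2% and 57.0% of probes were detected per array. The series' design text speaks of sorted integrin alpha 6-positive cells, whereas the labels give dorsal skin. Endothelial, fibroblast and smooth muscle markers were detected beside the basal keratinocyte genes Krt5, Krt14 and Itga6. Detection alone does not settle which material was hybridised.

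The members pointed in different directions. On the log2 scale of background-corrected, normalized signal, both mutant sources exceeded every control source for Lhx2 and Lgr5, with mean differences of 1.07 and 0.76. Cd34 was lower in both, with a difference of -0.76, and Foxc1 differed by -0.73 with overlapping sources. Sox9, Lrig1, Tcf7l1 and Nfatc1 overlapped between the groups. None of the 12 probes passed the limma test at an adjusted p of 0.05, which 0.0552% of all tested probes did (0.0207% higher and 0.0345% lower in the mutant). At an unadjusted p below 0.05 there were 2, Lgr5 and Lhx2, beside 12.1% of all tested probes.

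**Figure D1:**
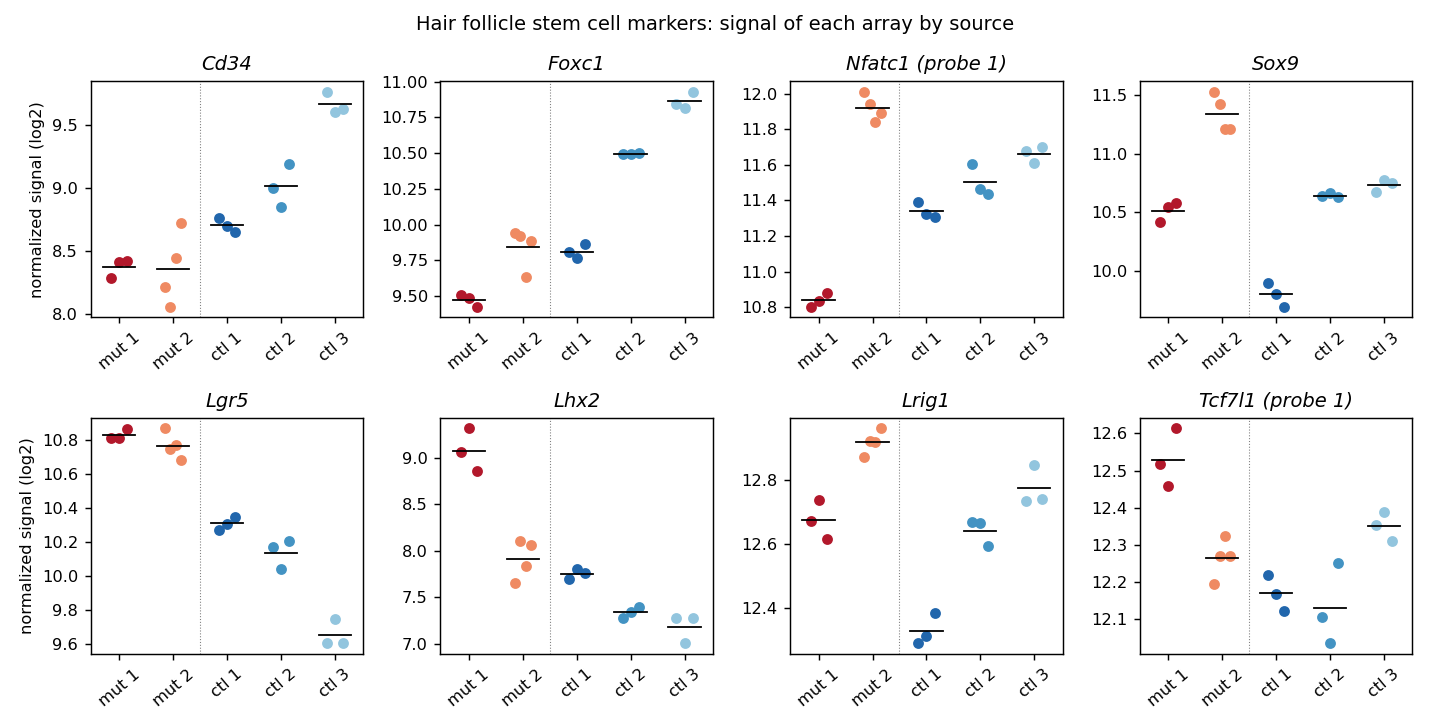
Normalized signal (log2, vertical axis, a separate range for each gene) of each array (dots) in the 2 mutant sources (mut) and 3 control sources (ctl), with source means as black lines; Nfatc1 and Tcf7l1 are shown by their probe 1. All mutant arrays for Lgr5 lie above all control arrays, and the 2 mutant sources of Nfatc1 lie on either side of the controls.

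Read by gene, with 1 probe each, 2 of 8 members lay above and 1 lay below all control sources in both mutant sources. The same was true of 14.1% (above) and 15.3% (below) of all 10013 tested genes, and of 15.8% and 14.0% of all tested probes. The median difference of the 8 genes was 0.20, against 0.0025 over all tested genes. The absolute difference had a median of 0.63 over the 8 genes and 0.23 over all tested genes. By probe the gap was small, with 0.27 over the 12 member probes and 0.23 over all tested probes. The members were chosen with earlier results of these data known, so these medians describe the samples and are not a test.

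Promoter sequence is shown for the members with the largest differences that have an entry in the RefSeq promoter table (GRCm38.p6), to set the binding letters of the marker factors beside the genes they are measured with. Windows run from 250 bases before to 50 after a gene start, and 7 of the 10 members have 1 or 2 of them (9 windows); Lgr5, Sox9 and Nfatc1 are the others. Capitals mark GGAAA, the core of NFAT sites, and ACAAT, the core of SOX sites, on either strand (TTTCC and ATTGT). No match overlapped another motif.
Cd34, chr1:194938571-194938870, plus strand: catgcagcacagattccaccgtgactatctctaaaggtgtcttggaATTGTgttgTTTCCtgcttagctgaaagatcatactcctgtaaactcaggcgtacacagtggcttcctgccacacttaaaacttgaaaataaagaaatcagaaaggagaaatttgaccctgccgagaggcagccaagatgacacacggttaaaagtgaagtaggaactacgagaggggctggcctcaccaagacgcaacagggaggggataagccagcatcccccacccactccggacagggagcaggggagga
Foxc1, chr13:31806396-31806695, plus strand: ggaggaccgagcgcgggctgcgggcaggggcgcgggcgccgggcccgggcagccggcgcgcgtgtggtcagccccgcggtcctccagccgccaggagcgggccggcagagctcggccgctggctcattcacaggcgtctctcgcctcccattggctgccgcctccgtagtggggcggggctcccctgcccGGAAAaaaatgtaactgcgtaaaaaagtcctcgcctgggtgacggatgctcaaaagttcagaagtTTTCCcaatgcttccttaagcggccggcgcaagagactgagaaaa
Lhx2, chr2:38339031-38339330, plus strand: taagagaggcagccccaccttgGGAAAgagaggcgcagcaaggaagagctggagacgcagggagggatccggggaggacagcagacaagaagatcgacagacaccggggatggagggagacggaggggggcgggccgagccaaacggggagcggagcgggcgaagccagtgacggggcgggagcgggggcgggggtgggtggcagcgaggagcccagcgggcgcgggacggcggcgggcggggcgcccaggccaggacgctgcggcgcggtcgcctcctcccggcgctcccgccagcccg
Lhx2, chr2:38351058-38351357, plus strand: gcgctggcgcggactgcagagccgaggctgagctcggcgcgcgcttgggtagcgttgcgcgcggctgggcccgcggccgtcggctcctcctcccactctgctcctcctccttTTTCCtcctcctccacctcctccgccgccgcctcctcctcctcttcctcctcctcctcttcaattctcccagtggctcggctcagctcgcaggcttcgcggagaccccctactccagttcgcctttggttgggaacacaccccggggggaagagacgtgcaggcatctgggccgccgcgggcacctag

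The Cd34 window held 1 NFAT core at -195 and 1 SOX core at -204 from the gene start. Foxc1 held 2 NFAT cores, at -60 and 6, and each Lhx2 window held 1, at -228 and -138. Over all 32851 promoter windows 61.3% held an NFAT core and 31.0% a SOX core, against 5 and 3 of the 9 member windows. The letters CTTTGA (TCF/LEF), TAAACA (forkhead), TAATTA (LIM homeodomain) and GGTGTGA (T-box), searched on both strands, were in none of the 9 windows and in 16.0%, 13.4%, 5.29% and 3.98% of all windows. These matches describe letters in a window and not binding.

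Of the surface receptors, Lgr5 (probe ILMN_2650008) was the member whose groups were furthest from overlapping. Its mutant sources read 10.83 and 10.77, and its control sources 10.31, 10.14 and 9.65. Mutant arrays ran from 10.68 through a median of 10.81 to 10.87, control arrays from 9.60 through 10.17 to 10.35. Every mutant array thus lay above every control array, as for 6.13% of all tested probes, and Lgr5 was the 1 member of which that held; no member had every mutant array below every control array (6.54% of all tested probes). The mutant sources lay within 0.062 of each other, while the control sources spanned 0.66. The difference of 0.76 (SE 0.24, 95% interval 0.17 to 1.36, 1.70-fold) did not pass limma (adjusted p = 0.333). A two-sided exact permutation of the 5 sources gave p = 0.1, the lowest value its 10 arrangements can reach (adjusted p = 0.6 over the 12 member probes). Within slide 1 the difference was 0.79 and within slide 2 it was 0.75. Both slides hold arrays of the same 5 sources, so these values do not replicate each other. When limma kept all 16 arrays and took source as a random effect, Lgr5 was called (adjusted p = 0.0095) and no other member was. That fit keeps arrays of a source as separate samples and called many more of all tested probes than the fit of 5 sources. Its call of Lgr5 is therefore not separate support for a difference and does not set Lgr5 apart from all tested probes. The number of probes it called is given with the other alternatives below.

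Lgr6 (ILMN_2980093), the isthmus relative of Lgr5, was not above background on any of the 16 arrays. Its raw intensity ran from 115.0 to 158.7, and its lowest detection p was 0.130. The dimmest probe called detected on an array had a raw intensity of 153.4 to 192.6, depending on the array. The assay therefore gives no level and no difference for Lgr6.

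Lrig1 (ILMN_2640862) was detected on every array, and its groups overlapped. Its mutant sources read 12.67 and 12.92, and its control sources 12.33, 12.64 and 12.77. Control source 1 was the lowest and control source 3 lay between the mutant sources. The difference of 0.22 (SE 0.18, limma adjusted p = 0.706) had a 95% interval from -0.23 to 0.66, and was 0.089 without control source 1 and 0.094 without mutant source 2.

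Cd34 (ILMN_2714360) was the member lower in both mutant sources. The mutant sources read 8.37 and 8.36, and the control sources 8.71, 9.02 and 9.67. Mutant arrays ran from 8.06 through 8.42 to 8.73 and control arrays from 8.65 through 9.01 to 9.77, so that arrays overlapped at the edge although sources did not. The gap between the groups (0.33) was smaller than the span of the controls (0.96). The difference of -0.76 (SE 0.32, 95% interval -1.55 to 0.027), or 59.0% of the control level, had a limma adjusted p of 0.426, and without control source 3 it was -0.49. Within slide 1 it was -0.92 and within slide 2 it was -0.59, with the same sources on both slides.

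Since Cd34 is not particular to the bulge, markers of endothelial and other non-epithelial skin cells were read in the same sources. Whether each of these cell types carries Cd34 here was not measured. Of 10 tested endothelial markers 8 were below all controls in both mutant sources and 0 were above (median difference -1.03), where 15.3% of all tested genes were below and 14.1% above. These shares are the background of the marker counts that follow. Their summed linear signal was 26301 and 23160 in the mutant sources and 36101 to 67723 in the controls, and Kdr was under the detection filter. Sox17, an endothelial transcription factor, differed by -1.90 (limma adjusted p = 0.239) and the junction protein gene Esam by -1.18 (adjusted p = 0.315). Dermal fibroblast markers were lower for 4 and higher for 1 of 10 (median -0.35, summed signal 66232 and 41296 against 52176 to 65576). Among these, collagen gene Col1a1 differed by -0.85 and Dpt, which encodes dermatopontin, by -1.32. Adipocyte markers were lower for 3 of 4 (median -1.03, summed signal 4533 and 3036 against 5848 to 9018), led by Lpl at -0.99 and Adig at -1.67, with Fabp4 and Plin1 detected on no array. Mast cell markers overlapped for all 4 (summed signal 601 and 899 against 354 to 2545), with the proteases Cma1 and Mcpt4 at -0.61 and -0.62 and Ms4a2 detected on no array. The part of these cells in the Cd34 difference was not tested. In bulk RNA fewer cells of a type and less RNA per cell cannot be told apart.

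**Figure D2:**
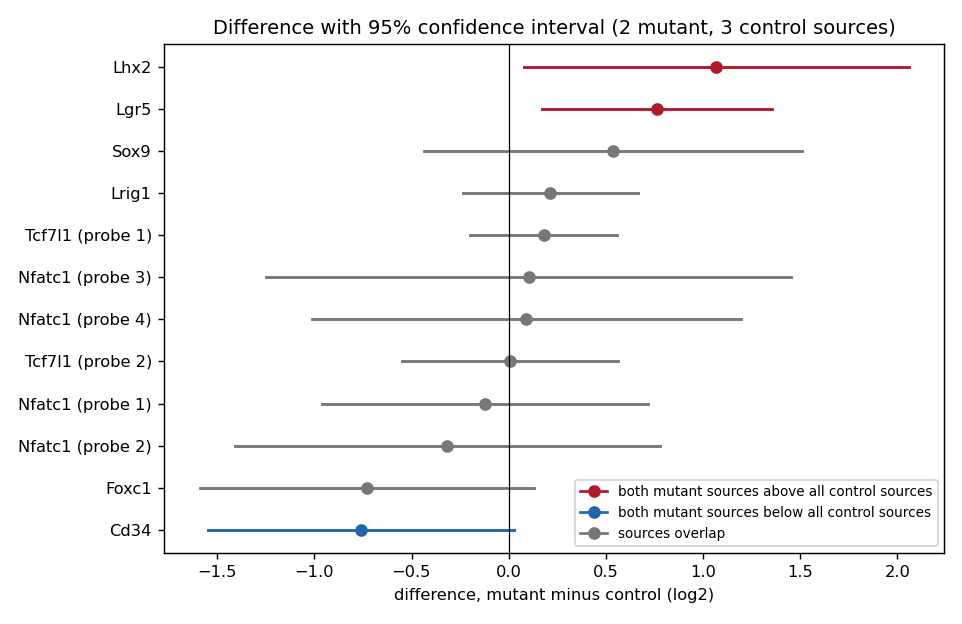
Mean difference between 2 mutant and 3 control sources (log2, horizontal axis) for the 12 tested member probes, with 95% confidence intervals from the limma fit as lines and colours showing whether the sources of the groups overlapped. The intervals of Lgr5 (0.17 to 1.36) and Lhx2 (0.079 to 2.06) lie above 0, and that of Cd34 reaches 0.027.

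Of the transcription factors, Lhx2 (ILMN_2722383), a LIM homeodomain factor, had the largest difference. The mutant sources read 9.08 and 7.91, and the control sources 7.75, 7.34 and 7.19. Mutant source 1 stood well apart, while mutant source 2 exceeded control source 1 by 0.16, no more than the spread between arrays of a source (SD 0.16), and arrays of the groups overlapped (lowest mutant array 7.65, highest control array 7.80). The difference was 1.07 (SE 0.40, 95% interval 0.079 to 2.06, 2.10-fold), with a limma adjusted p of 0.385. It was 0.49 when mutant source 1 was left out and 1.65 when mutant source 2 was.

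Sox9 (ILMN_3007428), an HMG box factor required for bulge cells to form, varied as much within groups as between them. Its mutant sources read 10.51 and 11.34, and its control sources 9.80, 10.64 and 10.73. Mutant source 2 was the highest and control source 1 the lowest, and mutant source 1 lay among the controls. The difference of 0.54 (SE 0.39, 95% interval -0.44 to 1.51) had a limma adjusted p of 0.658, and came to 0.12 with mutant source 2 left out, 0.95 with mutant source 1 left out and 0.24 with control source 1 left out.

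Foxc1 (ILMN_2886260), a forkhead factor that holds bulge cells in quiescence, was lowest in mutant source 1. It read 9.47 and 9.85 in the mutant sources and 9.81, 10.50 and 10.86 in the control sources. Mutant source 2 lay above control source 1, so the groups overlapped, though by less than the array spread (SD 0.084). The difference was -0.73 (SE 0.34, 95% interval -1.59 to 0.13, limma adjusted p = 0.481), and -0.49 without control source 3. Foxc2, its closest relative, was lower in both mutant sources and differed by -0.90 (adjusted p = 0.301, above background on 6 of the 7 mutant arrays).

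Tcf7l1, also known as Tcf3, was read by 2 probes. Probe 1 (ILMN_3109289) read 12.53 and 12.26 in the mutant sources and 12.17, 12.13 and 12.35 in the controls. Control source 3 lay between the mutant sources, and the difference of 0.18 had a 95% interval from -0.20 to 0.56 (limma adjusted p = 0.708). It was 0.047 with mutant source 1 left out and 0.31 with mutant source 2 left out. Probe 2 (ILMN_2771781), annotated to another transcript of the gene, was dim: it was detected on 5 of the 7 mutant arrays and all 9 control arrays, and differed by 0.0067 (SE 0.22).

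Nfatc1, the calcineurin-responsive factor of bulge quiescence, separated the 2 mutant sources rather than the genotypes. Probes 1, 2 and 4 (ILMN_2648455, ILMN_1216522 and ILMN_2648704) are annotated to 1 RefSeq transcript and probe 3 (ILMN_1224430) to another. At probe 1 the mutant sources read 10.84 and 11.92 and the control sources 11.34, 11.50 and 11.66. All 4 detected probes were lowest in mutant source 1 and highest in mutant source 2, with every control source between them. The mutant sources differed by 1.08, 1.42, 1.63 and 1.38 at probes 1 to 4, while the mutant mean differed from the control mean by -0.12, -0.32, 0.10 and 0.090 (limma adjusted p 0.838 to 0.966). The 95% interval was -0.96 to 0.72 at probe 1 and -1.25 to 1.46 at probe 3, so both intervals hold differences of either sign. All 4 were negative without mutant source 2 (-1.02 to -0.60) and positive without mutant source 1 (0.39 to 0.92). Probes 5 and 6 (ILMN_2647739 and ILMN_2647734), annotated to the transcript of probe 3, were detected on no array (raw intensity 123.6 to 175.4).

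**Figure D3:**
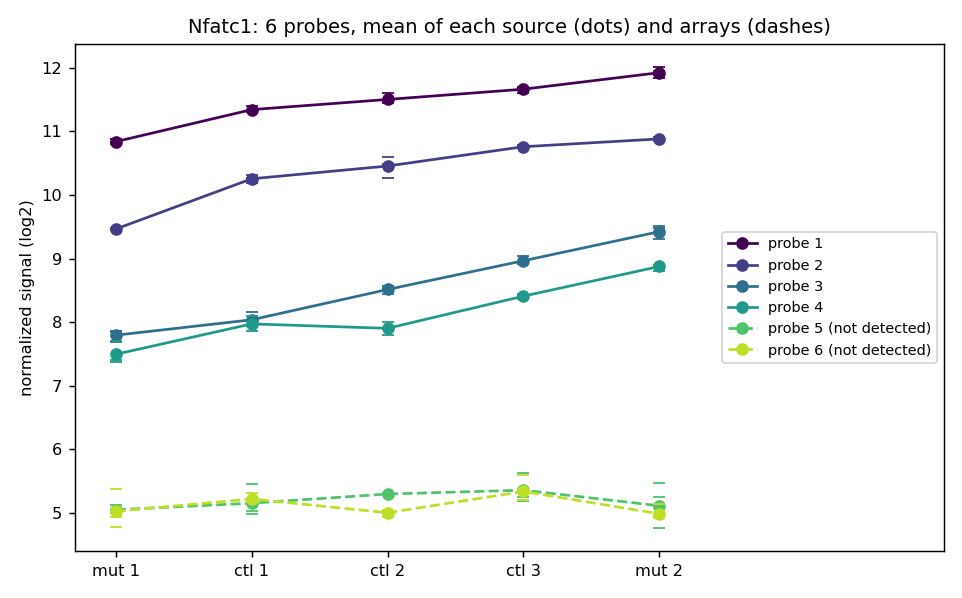
Signal of the 6 Nfatc1 probes (log2, vertical axis) with source means as dots joined by lines and arrays as dashes, the sources ordered with the controls between the 2 mutant sources. The 4 detected probes run from a low in mutant source 1 to a high in mutant source 2, and the 2 undetected probes stay between 4.77 and 5.63.

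The control sources differed among themselves too. Control source 3 was the highest, and control source 1 the lowest, for 5 of 8 genes (Cd34, Foxc1, Lrig1, Nfatc1 and Sox9), as for 29.6% of all tested genes. For Lgr5 and Lhx2 the arrangement was the opposite, as for 35.5% of all tested genes. Control sources 2 and 3 differed by no more than the array spread for Sox9 (0.090, array SD 0.10) and Lhx2 (0.15, array SD 0.16). For 9 of the 12 probes the gap between the mutant sources was larger than the mutant-control difference, as it was for 68.1% of all tested probes; the exceptions were Cd34, Lgr5 and Foxc1.

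Genes with the closest profile over the 5 sources were taken by Euclidean distance of centred values, for the 6 members that spanned more than 1 log2 unit. Lgr5 lay closest to Lyar (distance 0.11), Rbbp7 (0.16) and Dis3 (0.17). Lhx2 lay closest to Scx (0.11), a bHLH factor of tendon, then to Fads2 and the replication helicase gene Mcm7 (0.26 and 0.27). Nearest to Cd34 were Hlx (0.086), Gngt2 and Tlcd1 (both 0.17), and nearest to Foxc1 were Echdc1, Cat and Aacs (0.15 to 0.16), where Cat encodes catalase. Nfatc1 lay closest to Ppl (0.076), Nectin2 (0.085) and Dtx2 (0.086), the first of which encodes periplakin of the cornified envelope. Sox9 had more distant neighbours, namely Slc15a4 (0.20), Eif1ad (0.24) and Lpcat2 (0.26). With 5 sources and 10013 genes such neighbours are a description of these samples.

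**Figure D4:**
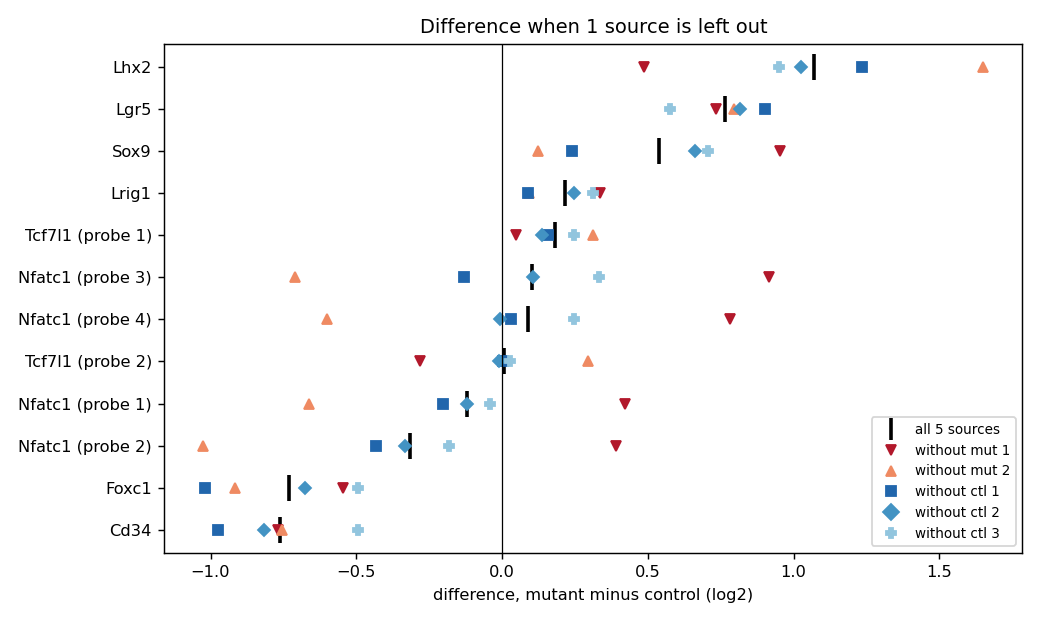
Mean difference (log2, horizontal axis) of the 12 tested member probes with all 5 sources (black bars) and with each source left out in turn (coloured symbols; mut, mutant; ctl, control). Lgr5 stays between 0.57 and 0.90 and Cd34 between -0.97 and -0.49, whereas the 4 Nfatc1 probes take both signs.

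Other genes known from the same compartments were read from a list, which was chosen with earlier results of these data known. Its counts therefore describe these samples and are not a separate test. For the bulge and hair germ 15 of 20 genes were tested and 0 passed the limma test over all genes, as 0.0499% of all tested genes did. At an unadjusted p below 0.05 there were 4, beside 12.2% of all tested genes. Both mutant sources were above all controls for 7 of the 15 and below for 1 (14.1% and 15.3% of all tested genes), with a median difference of 0.23. Sfrp1, a secreted Wnt inhibitor, read 11.03 and 11.33 in the mutant sources and 10.14 to 10.27 in the controls, a difference of 0.96 (SE 0.17, adjusted p = 0.217). Itgb6, an integrin subunit that activates TGF-beta, differed by 1.93 (adjusted p = 0.310) and the matrix glycoprotein gene Tnc by 1.13 (adjusted p = 0.313). Fgf1, Krt19, Fst and Npnt were the others above all controls, and Bmp6, detected on 2 of the 7 mutant arrays, was the 1 below. Krt15, the classic bulge keratin, read 14.56 and 15.11 against 15.10 to 15.38 and overlapped. Wif1, a secreted Wnt inhibitor that is also a dermal papilla marker, had the largest difference of the list, -2.07 (adjusted p = 0.478), and overlapped at 10.80 and 8.31 against 10.28 to 12.66. Cdh3, the P-cadherin of the hair germ, differed by 0.23 with overlapping sources, and Fgf18, Gas1, Gli1, Hopx and Postn were detected on no array. Itgb6 and Tnc are also known from wounded epidermis.

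For the isthmus and upper follicle 7 of 8 genes were tested, with 1 above and 1 below all controls in both mutant sources, a median of -0.090 and 0 past the limma test (1 at an unadjusted p below 0.05). Gata6, a factor of the upper follicle and sebaceous duct, was the 1 below, at 9.61 and 10.33 against 10.47 to 11.19 (difference -0.82, adjusted p = 0.394). Krt17, a keratin of the outer root sheath, was the 1 above and differed by 0.20 (adjusted p = 0.558), and Krt79, of the follicle opening, differed by -0.52 with overlap (-0.15 without mutant source 1 and -0.89 without mutant source 2). Plet1, an isthmus marker, read 7.21 and 11.13 in the mutant sources and 8.36 to 8.98 in the controls, the same arrangement as Nfatc1.

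**Figure D5:**
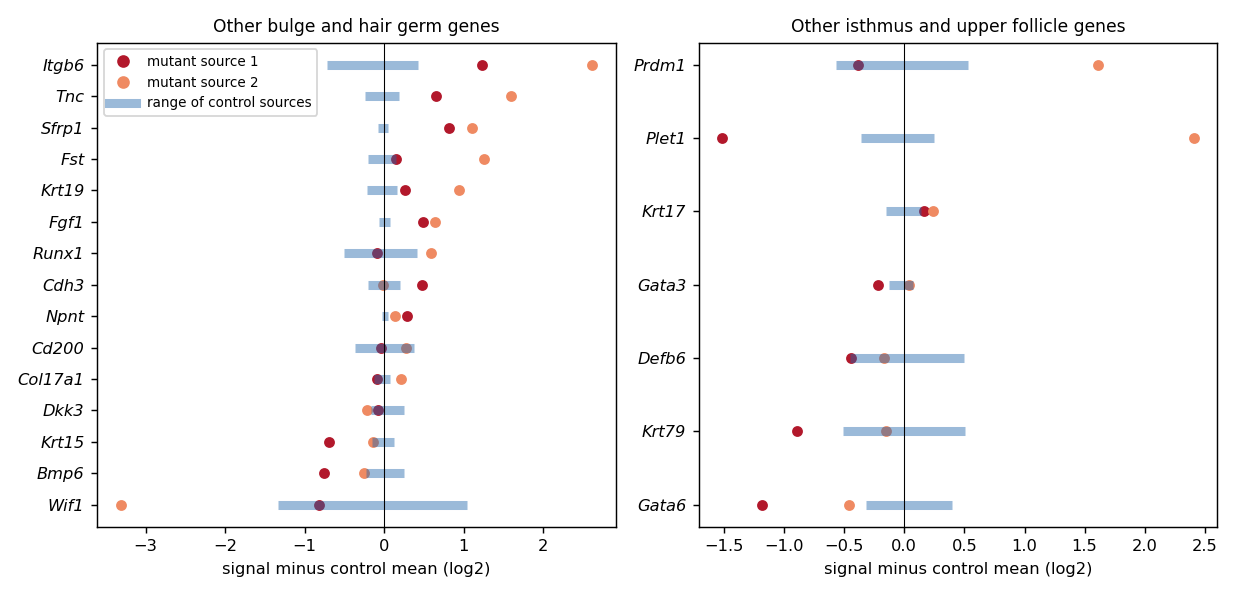
Signal of each mutant source minus the control mean (log2, horizontal axis; dots) for the tested genes of the bulge and hair germ list (left) and the isthmus and upper follicle list (right), with the range of the 3 control sources as a blue bar. Sfrp1, Itgb6 and Tnc lie to the right of the controls in both mutant sources, and Plet1 lies on opposite sides.

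None of the 7 lists of partners and relatives held a gene past the limma threshold. At an unadjusted p below 0.05 there were 2 in the BMP list, 1 in the hedgehog list, 1 among the relatives and 0 in the others. In the R-spondin module of the Lgr receptors all 4 tested genes overlapped (median -0.83): Rspo4, Rspo3 and Rspo1, the ligands, differed by -0.92, -0.83 and -0.82, and were detected on 3, 7 and 4 of the 7 mutant arrays. In the TCF and Groucho list all 9 overlapped (median -0.12), with Axin2, a Wnt target, at -0.47 (-0.043 without mutant source 2 and -0.89 without mutant source 1), the corepressor Tle1 at -0.52 and Lef1 at -0.66. Lef1 read 8.23 and 5.20 in the mutant sources and was detected on 3 of the 7 mutant arrays. In the list of receptor tyrosine kinases and relatives of Lrig1 all 3 tested genes overlapped (median 0.015), with Egfr at 0.32, Ret at -0.39 and Lrig3 at 0.015. Egfr, the EGF receptor gene, had 4 tested probes, with differences from 0.024 to 0.66.

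In the calcineurin and NFAT list 2 of 9 were below all controls in both mutant sources (median -0.22), namely 2 of the 3 catalytic subunits of calcineurin. Ppp3cc differed by -0.70 (adjusted p = 0.457) and Ppp3ca by -0.38 (adjusted p = 0.489), while Rcan2, an inhibitor of calcineurin, differed by -0.62 with overlap. The other catalytic subunit gene, Ppp3cb, and the regulatory subunit gene Ppp3r1 overlapped, with differences of 0.0027 and -0.00049. In the BMP list, which acts in stem cell quiescence, 4 of 11 were below and 0 above (median -0.039). Id1 and Id2, transcriptional targets of BMP signals, differed by -0.88 and -0.64 (adjusted p = 0.314 and 0.350), and the ligand Bmp4 by -1.30 (adjusted p = 0.422). Id3, another such target, overlapped, with a difference of 0.022 (adjusted p = 0.987). In the hedgehog list 1 of 4 was below (median 0.031): Hhip, a hedgehog-binding inhibitor, differed by -2.03 and was detected on 1 of the 7 mutant arrays. Its difference was -1.0 without background correction. Ptch1, the receptor, differed by 0.33, and Shh, the ligand, by 1.22 with 10.00 in mutant source 1 and 5.74 in mutant source 2 (detected on 3 of the 7 mutant arrays). Bmp4, Hhip and Rspo3 are dermal papilla markers as well. Among relatives of the factors, 2 of 6 were below (median -0.051), Foxc2 and Tbx3 (-0.55), and Sox4 differed by 0.33.

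Markers of the remaining skin cells differed to different degrees. Basal keratinocyte markers, the compartment in which K14-cre acts, were above all controls for 1 of 8 and below for 0 (median -0.029), with a summed signal of 126190 and 133989 in the mutant sources against 125383 to 134179, Krt5 at 0.19 and Lamb3 at -0.19 (-0.0075 without mutant source 1 and -0.37 without mutant source 2). Suprabasal markers overlapped for all 5 (median 0.35, summed signal 39653 and 88720 against 51613 to 75305), with Krt2 at 1.03 and Ivl at -1.08 and Dsg1a detected on no array. Sebocyte markers were below for 6 of 6 (median -2.37, summed signal 7723 and 9257 against 23559 to 42617), among them Mc5r at -2.95, which fell past the limma threshold (adjusted p = 0.047, past it in 18 of 35 alternatives, detected on 3 of the 7 mutant arrays, -1.61 without background correction), and Scd1 at -1.78; Far2 was detected on no array. Dermal papilla markers were below for 6 of 11 (median -1.32, summed signal 18428 and 12359 against 25793 to 48011), with Hey1 at -1.32 and Igfbp4 at -0.74. T cell markers were below for 6 of 7 (median -2.53, summed signal 13398 and 11173 against 14938 to 24836), with Nkg7 at -2.60 and Ctsw at -2.53, and Cd4 and Cd8a detected on no array; Thy1 is on this list and the fibroblast list. Melanocyte markers were below for 2 of 5 (median -0.83, summed signal 8599 and 2525 against 4919 to 14521), namely Mlana at -2.26 and Oca2 at -0.83 (-0.32 without background correction). Smooth muscle markers were above for 2 of 6 (median 0.17, summed signal 30185 and 18538 against 12653 to 15511), Acta2 at 0.99 and Tagln at 1.08, with Cnn1 detected on no array. Myeloid markers overlapped for all 5 (median 0.20, summed signal 18240 and 6063 against 2830 to 12516), with Lyz2 at 1.00 and Aif1 at 0.54 and Itgam detected on no array. The summed basal keratinocyte signal of both mutant sources lay within the control range. The part of the other cell types in the member differences was not tested.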

How the data were processed

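Per the file headers, the deposited raw table holds probe intensity with its detection p-value, per array, and per the submitters' processing notes it came from GenomeStudio, of no stated version. The authors' normalized table holds intensity on a linear scale; it equalled the quantile-normalized raw values with a median relative difference of 0.00648%. The labels' protocols name Trizol, RNeasy columns and biotin labelling. No genome build for the probes is named in these sources.

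Values were background-corrected with normexp in limma 3.58.1 (R 4.3.3; offset 16, background inferred through the detection p), quantile normalized and put on the log2 scale. Testing needed a detection p under 0.05 for 7 or more of the 16 arrays, which 14504 probes met. Symbols came from the platform annotation, updated by gene identifier through RefSeq (GRCm38.p6). Arrays were averaged into 5 sources, and lmFit with eBayes (with an intensity trend; degrees of freedom 3 residual, 2.53 prior) compared 2 mutant with 3 control sources, with Benjamini-Hochberg adjustment over all tested probes. Gene-level statements use each gene's brightest probe. The fit was run on simulated data with independent normal noise, to check that added differences were recovered in size. That run does not speak to error rates in these sources. Summed signals are sums of source means on the linear scale over the tested genes of a list.

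The rule named Gab1, every member probe, the 3 genes of smallest p in each partner list, 2 in each marker list and the 3 nearest profiles; Krt15, Cdh3, Wif1, Id3, Ppp3cb, Ppp3r1, Plet1, Fgf1, Krt19, Fst, Npnt, Bmp6, Eif2s3y and genes not detected were added after their values were seen. The members and lists were chosen with earlier results of these data known. Alternatives covered background correction, scaling, the authors' table, the filter, slides, array weights, the variance trend, separate arrays, and leaving out arrays and sources. The number of sources limits the precision.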

Additional observations from a re-analysis of the deposited data

How the results depend on the processing

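Over 36 alternatives Lgr5, Lhx2, Cd34, Foxc1, Sox9, Lrig1 and Tcf7l1 probe 1 kept their direction in every one. The alternatives re-read the same sources, so a kept direction is not separate support. With 1 source left out, Lrig1 fell to as little as 0.089 and Tcf7l1 probe 1 to 0.047. All tested probes past the threshold numbered 8; they numbered 0 with 75th percentile scaling, without background correction, with offset 50, for the authors' own table, with probes detected on all 16 arrays, and on slide 1 or slide 2 alone, 1 with cyclic loess, 2 with array weights and 4 without a filter. Leaving out 1 array or source gave 0 to 8 (0 without control array 2, 4 or 6 and 0 without any 1 of the sources). Fits that keep arrays or slides as separate samples, although arrays of a source correlate above 0.99, gave more calls: 2214 with slide as a block on source-by-slide averages (2 of the member probes, Lgr5 and Lhx2), 4914 with 16 separate arrays (6 member probes, 4 higher and 2 lower, where 33.9% of all passed), and 883 with the source as a random block (1 member probe, Lgr5). The replicate block on the title numbers with 16 separate arrays gave 3395 probes (3 member probes: Lgr5, Lhx2 and Cd34). Deviations of the 7 same-numbered pairs from their group means correlated at -0.386 to 0.418, which gave no sign of pairing by number. These deviations hold the gaps between sources, so the check cannot exclude a pairing. The median of the 8 member genes ranged from 0.11 to 0.38 when an array or source was left out, 0.38 being without mutant source 1.

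None of the differences that changed sign passed the threshold in the comparison of 5 sources. Tcf7l1 probe 2 was -0.0307 with 75th percentile scaling, -0.0207 with cyclic loess, -0.017 on slide 2, -0.035 with 16 separate arrays and -0.019 with the replicate block. Lrig3 was -0.0319 with 16 separate arrays, -0.061 with the replicate block and -0.012 with array weights. The cause was not tested. Leaving out an array or source gave these ranges: Tcf7l1 probe 2 -0.28 to 0.30, Lrig3 -0.31 to 0.34, Nfatc1 probe 1 -0.66 to 0.42, probe 2 -1.02 to 0.39, probe 3 -0.71 to 0.92 and probe 4 -0.60 to 0.78. The ranges were -0.27 to 1.35 for Aif1, -0.74 to 0.36 for Dtx2, -2.87 to 0.72 for Ivl, -0.67 to 2.72 for Krt2, -2.18 to 0.85 for Lef1, -0.041 to 2.03 for Lyz2, -1.55 to 0.040 for Mcpt4, -0.68 to 0.37 for Nectin2, -0.65 to 0.35 for Ppl, -0.012 to 0.68 for Ptch1, -1.76 to 0.087 for Rspo3, -0.92 to 3.35 for Shh, -0.027 to 0.87 for Slc15a4 and -1.17 to 0.13 for Tle1. For Mcpt4 the sign changed without control source 3; for Nfatc1 probes 3 and 4 it changed without mutant source 2 and also, to -0.13 and -0.0056, without control source 1 and control source 2. For the others, apart from Lrig3 and Tcf7l1 probe 2, it changed with a mutant source left out. Of 70 named differences of genes other than the members, 15 changed sign when some source was left out and 26 more moved by over 1.5 times. Without background correction 21 of the 70 became smaller by over 1.5 times, dim genes such as Hhip, Mc5r and Oca2 among them. Where a single mutant source is left, it is assumed to vary like the control sources.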
